A study of Mus musculus with 4 samples.

Results

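Pericytes and smooth muscle cells, together called mural cells, wrap the outside of blood vessels and set their diameter. The 10 genes described here were chosen as markers of these cells, not of endothelium. They are the pericyte genes Kcnj8, Abcc9, Rgs5 and Cspg4, the contractile genes Acta2, Myh11, Tagln, Cnn1 and Des, and Mcam. All 10 were found by gene name on the arrays, on 11 of 39429 non-control probes, since Mcam had 2 probes. RNA came from mouse spleen cells that carried the endothelial surface protein CD31 and lacked the leukocyte protein CD45, sorted from Ackr4GFP/wt mice, in which 1 Ackr4 allele carries green fluorescent protein. The groups were CD31+ cells with the reporter (ACKR4-positive) and CD31+ cells without it (ACKR4-negative), both taken from the same pools as living (DAPI-negative) cells; the labels name no treatment and no age. Each of 2 independent sorts drew on a pool of 2 to 3 spleens, so each group had 2 arrays, 1 per sort. With 2 pools per group, p-values measure the spread between sorts. Where the sort number enters the fit as a replicate block, p-values instead measure how much the difference between the groups varies from sort to sort.

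Kcnj8 encodes the pore of an ATP-sensitive potassium channel and Abcc9 its regulatory subunit, and the pair neighbours each other on chromosome 6. Opening of this channel relaxes vessels. Rgs5 encodes a regulator that shortens G protein signals, and Cspg4 encodes the surface proteoglycan NG2. Acta2 (smooth muscle actin), Myh11 (smooth muscle myosin heavy chain), Tagln (transgelin) and Cnn1 (calponin) encode parts of the contractile apparatus or proteins bound to its actin. Des encodes desmin, an intermediate filament of muscle. Serum response factor and its partner myocardin switch many contractile genes on through DNA elements known as CArG boxes. Mcam encodes CD146, an adhesion protein that endothelial as well as mural cells carry. In the spleen, mural cells surround arteries and arterioles, and muscle-like cells also lie in the capsule and trabeculae.

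The Acta2 promoter is shown because it carries such elements and because Acta2 had the largest log2 fold change among the members. CArG boxes were searched as CC and GG around 6 bases, of which at most 1 is C or G, a form that covers both strands. In the 250 bases before the RefSeq start of the gene (GRCm38.p6, chr19:34255374-34255623, minus strand), the capitals mark its 2 boxes, which begin 84 and 34 bases before the start.
Acta2 promoter: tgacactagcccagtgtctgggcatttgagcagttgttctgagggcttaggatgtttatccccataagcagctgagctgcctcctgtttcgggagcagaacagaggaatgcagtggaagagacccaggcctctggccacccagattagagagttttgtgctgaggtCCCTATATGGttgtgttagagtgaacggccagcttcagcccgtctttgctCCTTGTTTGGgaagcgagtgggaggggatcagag
At least 1 box was found in 8.59% and at least 2 in 0.67% of 32851 promoter windows of this length. Of the 8 members with a promoter in the RefSeq table, 1, Acta2, held a box. The others were Kcnj8, Abcc9, Rgs5, Cspg4, Cnn1, Des and Mcam, and the absence of these letters in a short window says nothing about the factor.

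Probes of 60 bases read the members, and 4 of them are shown as examples of genes whose results are read with caution. The Myh11 probe (mm9, chr16:14202190-14202249, minus strand) was dim in ACKR4-positive cells, the Cspg4 probe (chr9:56746627-56746686) gave the smallest called difference, and the Des probe (chr1:75363404-75363629, whose 60 bases span 226 in the genome) was dim on 1 array. The Mcam probe shown (chr9:43949385-43949444) starts at base 1858 of the transcript. The Cspg4, Des and Mcam probes lie on the plus strand.
Myh11 probe: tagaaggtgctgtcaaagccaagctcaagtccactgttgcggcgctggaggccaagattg
Cspg4 probe: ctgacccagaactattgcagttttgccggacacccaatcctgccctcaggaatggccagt
Des probe: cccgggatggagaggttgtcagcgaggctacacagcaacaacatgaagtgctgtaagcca
Mcam probe at 1858: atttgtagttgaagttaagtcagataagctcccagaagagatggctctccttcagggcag
The other Mcam probe starts at base 2746 (chr9:43950664-43950723). Its bases 16 to 60 are 1 uninterrupted alternation of purines and pyrimidines, and its last 30 bases are shown for contrast with the probe at 1858.
Mcam probe at 2746, last 30 bases: tgtgtatacatatatgtgtgtatatatata

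The arrays were similar in brightness, with 54.9% to 58.3% of probes well above background and a 75th percentile of signal between 590.3 and 949.3. The spiked-in control RNA was dimmer on ACKR4-negative replicate 1, with a median signal of 837.4 against 2749 to 3487 on the other arrays. Ackr4, the sorted locus, had levels of -0.21 and 2.55 in ACKR4-positive cells against -7.53 and -7.50 in ACKR4-negative cells, as the labels say. A level is the log2 signal of a probe minus the 75th percentile of its array, so 0 equals that percentile. Of the markers that define the sorted cells, Pecam1, which encodes CD31, had levels of 3.36 and 2.58 in ACKR4-positive and 3.41 and 2.84 in ACKR4-negative cells. Ptprc, which encodes CD45, was well above background on 1 of 4 arrays, an ACKR4-positive one. Cdh5, which encodes the endothelial cadherin and was not a sort marker, had 4.67 and 4.09 in ACKR4-positive and 5.20 and 4.95 in ACKR4-negative cells. With pooled sorted cells, a lower signal can come from fewer cells of a type or from less RNA per cell, and these cannot be told apart.

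The 9 tested genes were lower in ACKR4-positive cells in both sorts, and for each of them both ACKR4-positive levels lay below both ACKR4-negative levels. The same order held for Rgs5, but in sort 2 neither of its arrays was well above background, so it has no direction there. Over all tested genes, 34.5% were lower and 38.6% higher in both sorts, and with no overlap between the groups 21.6% were lower and 23.3% higher. For 9 members limma gave a test. Of these, 4 passed at an adjusted p of 0.05 and 0 were higher, namely Kcnj8, Abcc9, Cspg4 and Myh11, where 5.62% of 17362 tested genes passed in either direction, 3.71% lower and 1.91% higher. With the sort number as a replicate block 8 members passed, all lower, where 15.3% of genes did so, 8.55% lower. Cnn1 and Myh11 are among the 8, and their errors in the blocked fit rest partly on background signal. That fit has 1 residual degree of freedom per gene before limma adds its prior, against 2 without the block. Rgs5 was too dim to be tested. Cnn1, Des and Myh11 passed the filter on dim probes only through the ACKR4-negative arrays, so a difference in them was to be found by construction.

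**Figure D1:**
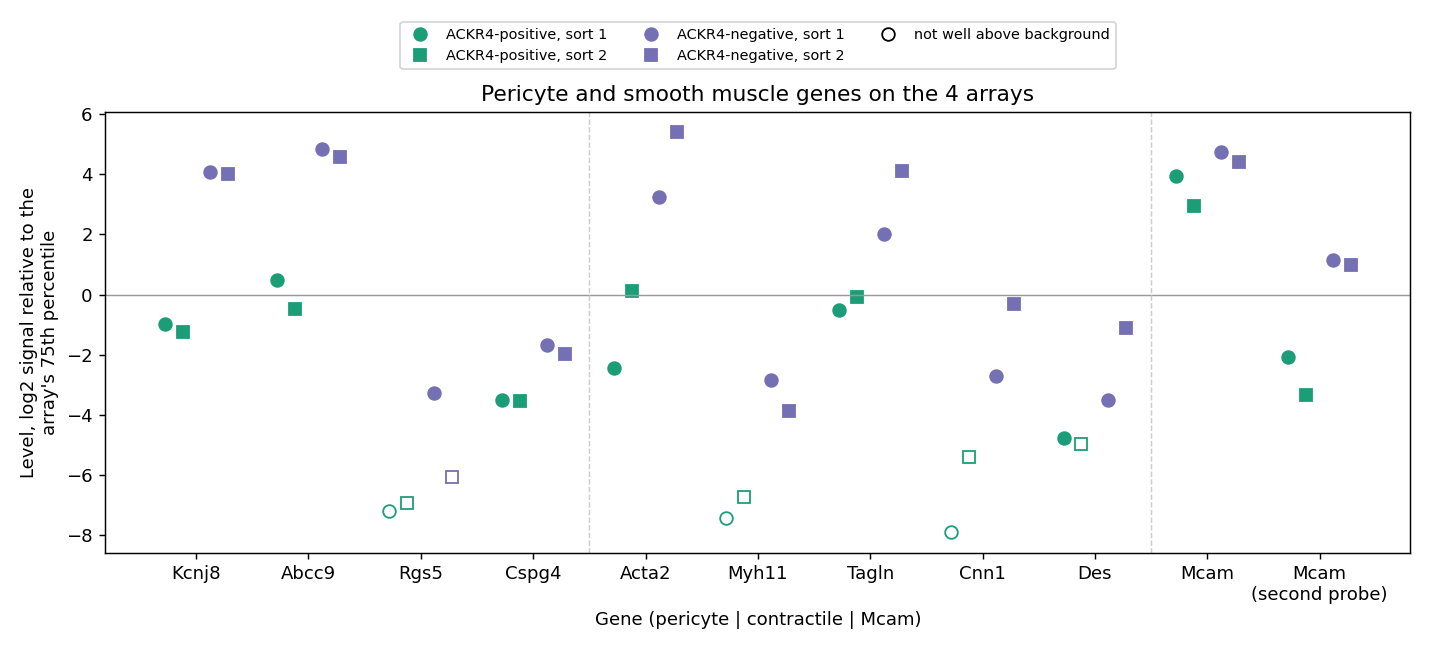
Level of each gene (log2 signal relative to the array's 75th percentile, vertical axis) on the 4 arrays, with ACKR4-positive arrays in green and ACKR4-negative arrays in purple, circles for sort 1, squares for sort 2, and open symbols where the probe was not well above background. Every green symbol lies below both purple symbols of its gene, and Rgs5, Myh11 and Cnn1 are open on both ACKR4-positive arrays.

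Both channel subunits fell. Kcnj8 had levels of -0.99 and -1.24 in ACKR4-positive cells against 4.09 and 4.00 in ACKR4-negative cells. The arrays of a group lay within 0.25 of each other, while the groups stood about 5 log2 units apart. Its log2 fold change was -5.16 ± 0.27 (SE, n = 2 arrays per group; limma, adjusted p = 0.00686), and the ACKR4-negative signal was 33.9-fold the ACKR4-positive one in sort 1 and 37.6-fold in sort 2. Abcc9 had levels of 0.50 and -0.49 in ACKR4-positive cells against 4.84 and 4.56 in ACKR4-negative cells. It fell by 4.69 ± 0.43 on the log2 scale (limma, adjusted p = 0.0136), 20.2-fold in sort 1 and 33.2-fold in sort 2. Both genes stayed well above background in ACKR4-positive cells, and both calls held without any 1 of the 4 arrays. In a fit with an array left out, its group keeps 1 array, which is assumed to vary like the arrays of the other group.

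Of the other pericyte genes, Cspg4 differed less, and the size of the Rgs5 difference could not be measured. Cspg4 had levels of -3.49 and -3.55 in ACKR4-positive cells against -1.67 and -1.97 in ACKR4-negative cells. Its arrays agreed within 0.30 in each group, and its log2 fold change was -1.71 ± 0.28 (limma, adjusted p = 0.0451), 3.55-fold in sort 1 and 3.00-fold in sort 2. Leaving out any single array ended that call (adjusted p = 0.133 to 0.292), at values of -1.86 to -1.56. Rgs5 had levels of -7.21 and -6.93 in ACKR4-positive cells against -3.27 and -6.05 in ACKR4-negative cells. Only ACKR4-negative replicate 1 was well above background, so Rgs5 carried measurable signal on 1 of 4 arrays. With the ACKR4-positive arrays raised to their lowest level above background, the ACKR4-negative mean was 2.02-fold the ACKR4-positive one. That mean includes the dim ACKR4-negative replicate 2, so the value is not a bound. The within-sort differences were -3.95 in sort 1 and -0.88 in sort 2, where both arrays were dim.

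Acta2 differed as much as the channel genes but at a level that moved between sorts. Its levels were -2.45 and 0.12 in ACKR4-positive cells against 3.26 and 5.42 in ACKR4-negative cells. Both groups were higher in sort 2, by 2.56 and 2.17, so the distance between the groups was -5.70 in sort 1 and -5.31 in sort 2. Its log2 fold change was -5.50 ± 1.14 (limma, adjusted p = 0.0826, not called), and -5.50 ± 0.23 with the sort number as a replicate block (adjusted p = 0.000495). Without ACKR4-positive replicate 2 it was called at -6.79 (adjusted p = 0.0405). It was not called at -4.22 without ACKR4-positive replicate 1, at -6.59 without ACKR4-negative replicate 1 or at -4.42 without ACKR4-negative replicate 2 (adjusted p = 0.142, 0.0612 and 0.156).

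Cnn1 was, like Acta2, higher in sort 2 in ACKR4-negative cells. Its levels were -7.91 and -5.41 in ACKR4-positive cells against -2.70 and -0.32 in ACKR4-negative cells, a difference of 2.38 between the ACKR4-negative arrays. Neither ACKR4-positive array was well above background, so the sorts cannot be compared there and the fold is a bound of at least 17.8. The log2 fold change was -5.14 ± 1.17 (limma, adjusted p = 0.104), and -5.14 ± 0.21 with the replicate block (adjusted p = 0.000495). The error with the block rests on the sort difference of background signal in ACKR4-positive cells, so that p-value is no support. Centred on their own means, the 4 levels of Cnn1 and Acta2 lay 0.39 log2 units apart (Euclidean distance over 4 arrays), the closest pair among the 9 tested members, though the ACKR4-positive levels of Cnn1 in that distance are background signal.

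Tagln and Des shared another pattern, in which the ACKR4-negative cells were higher in sort 2, by 2.09 and 2.39, and the ACKR4-positive cells differed by 0.42 and -0.20. Tagln had levels of -0.50 and -0.08 in ACKR4-positive cells against 2.03 and 4.12 in ACKR4-negative cells. Its log2 fold change was -3.37 ± 0.75 (limma, adjusted p = 0.0988, and 0.00733 with the replicate block). The ACKR4-negative signal was 5.80-fold the ACKR4-positive one in sort 1 and 18.5-fold in sort 2. Des had levels of -4.76 and -4.96 in ACKR4-positive cells against -3.49 and -1.10 in ACKR4-negative cells, with 1 of the 2 ACKR4-positive arrays well above background. Its log2 fold change was -2.57 ± 0.84 (limma, adjusted p = 0.236, and 0.0534 with the replicate block), 2.41-fold in sort 1 and 14.5-fold in sort 2. Without ACKR4-negative replicate 1, both were called, Tagln at -4.42 (adjusted p = 0.031) and Des at -3.76 (adjusted p = 0.0374). Without ACKR4-negative replicate 2, Tagln stood at -2.33 and Des at -1.37, not called (adjusted p = 0.118 and 0.367).

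Myh11, the most specific of the contractile genes for smooth muscle, went the other way between sorts. Its levels were -7.44 and -6.72 in ACKR4-positive cells against -2.84 and -3.86 in ACKR4-negative cells. Sort 2 minus sort 1 was -1.02 for its ACKR4-negative level, where it was 2.09 to 2.39 for the other 4 contractile genes. Its log2 fold change was -3.72 ± 0.49 (limma, adjusted p = 0.0266), and with both ACKR4-positive arrays below background the fold was at least 4.99. Myh11 was no longer called when ACKR4-positive replicate 1 (-3.36, adjusted p = 0.0732) or ACKR4-negative replicate 1 (-3.22, adjusted p = 0.0696) was left out, or with normexp background correction (-1.04, adjusted p = 0.236).

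**Figure D2:**
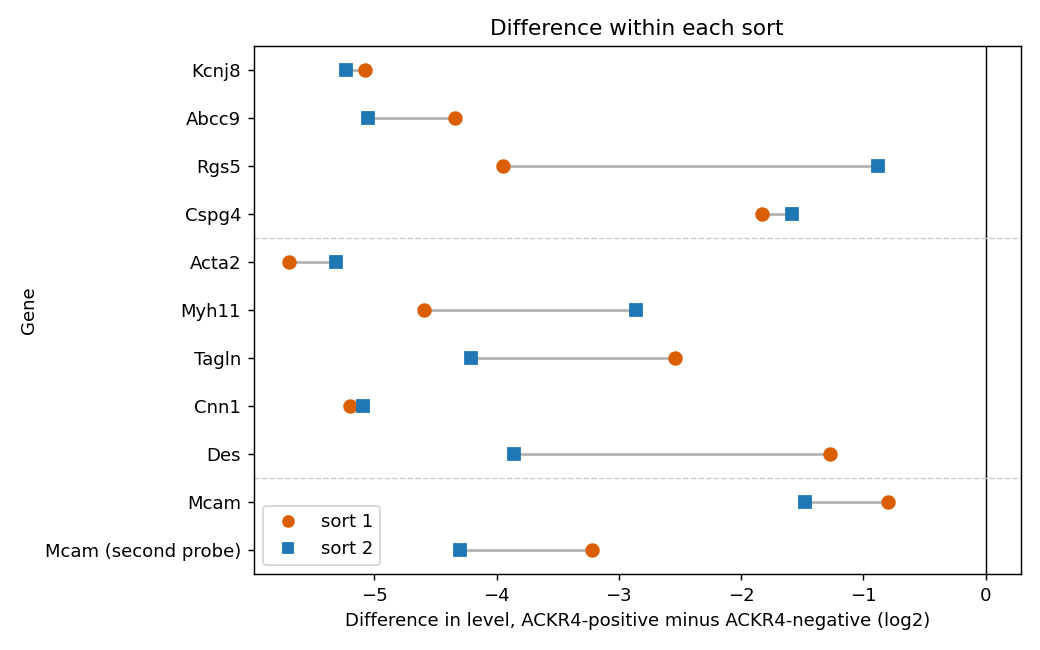
Difference in level between ACKR4-positive and ACKR4-negative cells (log2, horizontal axis) within sort 1 (circles) and sort 2 (squares) for each gene, with a grey line joining both sorts. All symbols lie left of 0, the sorts differ by 0.40 or less for Kcnj8, Cspg4, Acta2 and Cnn1, and by 1.67 or more for Rgs5, Myh11, Tagln and Des; for Rgs5, Myh11 and Cnn1 the ACKR4-positive arrays were at background.

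With Rgs5 counted, the pericyte and contractile members had close medians, and their ACKR4-negative levels moved differently between sorts. The median log2 fold change was -3.55 over the 4 pericyte genes and -3.72 over the 5 contractile genes, where the median over all tested genes was 0.04. With Myh11 and Cnn1 at their bound and Rgs5 at its 2.02-fold value, these medians were -3.20 and -3.37. In sort 1 the medians were -4.14 for pericyte and -4.59 for contractile genes, and in sort 2 they were -3.31 and -4.21. The values -3.72 and -4.59 are those of Myh11, and -3.55 and -4.14 lie midway between Abcc9 and Rgs5. In ACKR4-positive cells Myh11 and Rgs5 were at background, so background signal enters these medians. Rgs5 also has no direction in sort 2. Without Rgs5, the median of the tested pericyte genes was the value of Abcc9, -4.69, against -3.72 for the contractile genes. The closeness of the medians thus depended on Rgs5. The difference of the medians, pericyte minus contractile, was 0.17, and 0.45 and 0.90 within sorts, so it was smaller than its spread between sorts. Leaving out 1 array at a time moved it to between -0.37 and 1.36. Between sorts, the ACKR4-negative level changed by a median of 2.17 (sort 2 minus sort 1) over the contractile members and by -0.29 over the pericyte members. Over all tested genes the median of that difference was 0.13, and 1.98% of them were above 1.9. The exceptions were Myh11 among the contractile genes and Rgs5 among the pericyte genes, at -1.02 and -2.78, with Rgs5 dim in sort 2. This rests on 1 array per group and sort and was not tested. The wider lists described below did not share this split. In ACKR4-negative cells most other pericyte genes tested were higher in sort 2, such as Pdgfrb (-2.92 and -1.38), though not Ebf1 (-0.90 and -1.90). Other contractile genes went both ways, such as Actg2 (-2.27 and -0.02) and Cald1 (-2.69 and -4.74). The split therefore describes these members and not pericyte and contractile genes at large.

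**Figure D3:**
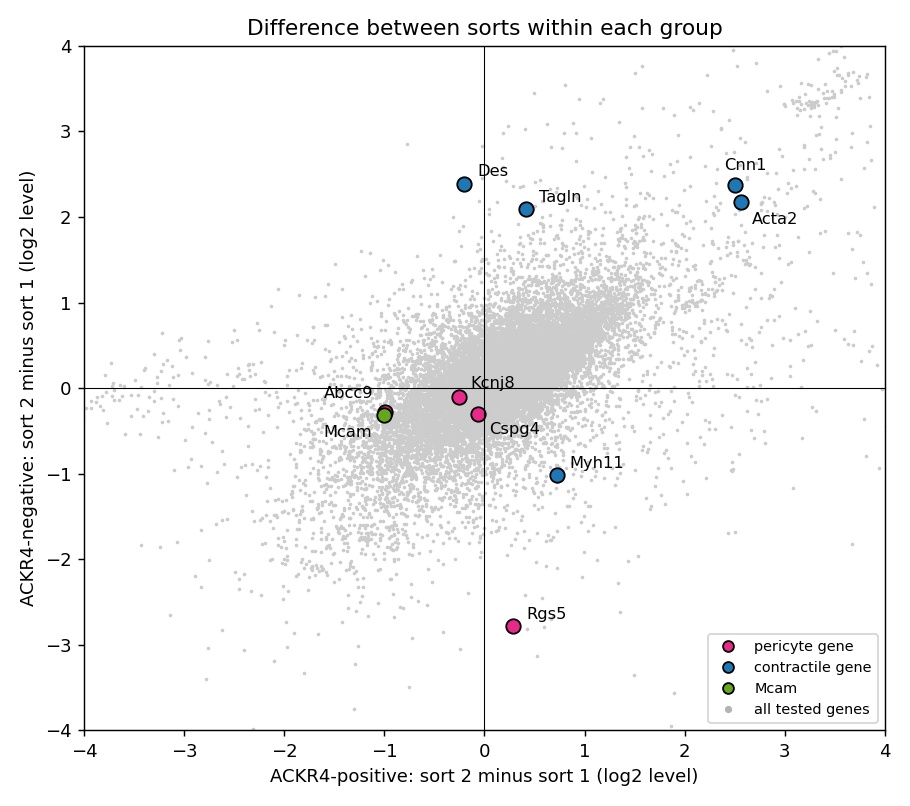
Sort 2 minus sort 1 in ACKR4-positive cells (log2 level, horizontal axis) and in ACKR4-negative cells (vertical axis), with each tested gene as a grey dot, contractile genes in blue, pericyte genes in pink (Rgs5 included, though too dim to be tested) and Mcam in green; 145 tested genes lie outside the axes. Acta2 and Cnn1 sit together at upper right, Tagln and Des high near the vertical axis, and Kcnj8, Abcc9 and Cspg4 within 1 unit of 0 on both axes. The horizontal positions of Cnn1, Myh11 and Rgs5 are differences between arrays at background.

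The 2 probes of Mcam gave different sizes. The brighter one, at base 2746, stands for the gene and had levels of 3.94 and 2.94 in ACKR4-positive cells against 4.74 and 4.42 in ACKR4-negative cells. Its log2 fold change was -1.14 ± 0.44 (limma, adjusted p = 0.316, and 0.0463 with the replicate block). The probe at base 1858 had levels of -2.08 and -3.33 in ACKR4-positive cells against 1.14 and 0.97 in ACKR4-negative cells, a log2 fold change of -3.76. When it stood for the gene in place of the brighter one, Mcam was called (adjusted p = 0.0263), as it was when each of 22183 tested probes was fitted on its own (-3.76 ± 0.49, limma, adjusted p = 0.0247). The probe at 2746 is the one with the long alternating stretch shown above. The direction was the same on both probes in both sorts, and the size depended on the probe.

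Other pericyte genes, a list of 22 that leaves out the members, held calls in both directions. Of 19 tested, 4 fell, 1 rose and 14 were not called, where 3.71% of all tested genes fell and 1.91% rose, and their median log2 fold change was -1.94, or -1.75 with dim genes at their bound. With the replicate block 10 fell and 4 rose, where 8.55% and 6.75% of all genes did. All 4 genes that fell passed the filter on dim probes only through the ACKR4-negative arrays, and 9 of the 19 tested genes did so in all, so the count and median are no support for a direction. Gucy1b1, which encodes a subunit of the nitric oxide receptor guanylate cyclase, had a log2 fold change of -7.70 ± 0.36 (limma, adjusted p = 0.00675, at least 57.3-fold). Ebf1, a transcription factor also known from B cells, fell by 5.89 ± 0.62 (at least 19.3-fold). Angpt1, which encodes a ligand of the endothelial receptor Tie2, fell by 4.93 ± 0.41 (at least 21.0-fold). Heyl, a Notch target gene of mural cells, fell by 2.96 ± 0.42 (adjusted p = 0.0332), and was not called with any single array left out or with normexp background correction (adjusted p up to 0.141). Anpep, which encodes the surface peptidase CD13, rose by 4.40 ± 0.39 (adjusted p = 0.0133), with levels of -0.97 and -0.20 in ACKR4-positive cells against -4.79 and -5.18 in ACKR4-negative cells. Called with the replicate block alone were 6 lower genes, Notch3, Aspn, Ndufa4l2, Gucy1a1, Pdgfrb and Gja4, at -3.86 to -1.94. Aspn and Ndufa4l2 were dim on both ACKR4-positive arrays (at least 3.37-fold and 11.9-fold lower), and Notch3 and Pdgfrb were dim on 1 of them. Background signal enters the values and blocked errors of these dim genes, so their blocked calls are no support. Likewise 3 higher genes, Ednra, Art3 and Rgs4, were called with the block alone, at 1.41 to 2.17. Of these, Pdgfrb encodes the receptor through which platelet-derived growth factor recruits pericytes, and Ednra an endothelin receptor. Without ACKR4-negative replicate 1, 8 genes of this list were called.

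Other contractile genes, a list of 30, were split. Of 27 tested, 4 fell, 1 rose and 22 were not called, where 3.71% of all tested genes fell and 1.91% rose. Their median log2 fold change was -0.16, also with dim genes at their bound. With the replicate block 11 fell and 4 rose, where 8.55% and 6.75% of all genes did. Itga8 and Mrvi1 among the falls passed the filter only through the ACKR4-negative arrays, and 6 of the 27 tested genes did so in all. Myl9, the regulatory light chain of smooth muscle and nonmuscle myosin, fell by 4.27 ± 0.41 (limma, adjusted p = 0.0146), with levels of 0.79 and 0.24 in ACKR4-positive cells against 4.39 and 5.18 in ACKR4-negative cells. Itga8, an integrin chain of mural and mesenchymal cells, fell by 3.89 ± 0.34 (at least 5.02-fold; adjusted p = 0.0132, and 0.198 with normexp). Mrvi1, which encodes the calcium release regulator IRAG, fell by 3.98 ± 0.43, a call lost without ACKR4-negative replicate 1 (adjusted p = 0.0571). Pdlim3, an actinin-binding protein of muscle, fell by 3.47 ± 0.35, a call lost without ACKR4-positive replicate 1 or ACKR4-negative replicate 2 (adjusted p up to 0.0539). Synm, which encodes the intermediate filament synemin, rose by 3.74 ± 0.60 (adjusted p = 0.043), a call lost with quantile normalization and without ACKR4-positive replicate 1 or ACKR4-negative replicate 2 (adjusted p up to 0.110). Called with the replicate block alone were 7 lower genes, Actg2, Pln, Ppp1r14a, Rasl12, Synpo2, Fhl1 and Casq2, at -4.88 to -1.24. Pln was dim on both ACKR4-positive arrays (at least 4.76-fold lower), and Actg2, Ppp1r14a and Fhl1 were dim on 1 of them. Background signal enters the values and blocked errors of these dim genes, so their blocked calls are no support. Likewise 3 higher genes, Cald1, Tpm2 and Actn1, were called with the block alone, at 1.32 to 1.66. Without ACKR4-negative replicate 1, 8 genes of this list were called, and without ACKR4-negative replicate 2, 3 were.

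Of the transcription regulators of these cells, 12 of 14 were tested, and 1 fell, where 3.71% of all tested genes fell and 1.91% rose. With the replicate block 3 fell and 1 rose, where 8.55% and 6.75% of all genes did. A single fall is no result about the list. The gene called without the block was Foxf1, a forkhead factor of visceral mesenchyme, with a log2 fold change of -5.03 ± 0.43 (limma, adjusted p = 0.0125). Its levels were -4.46 and -3.66 in ACKR4-positive cells against 0.66 and 1.29 in ACKR4-negative cells. Myocd, which encodes myocardin, was well above background on 0 of the 4 arrays. Tcf21, Tlx1, Foxc2 and Klf4 had log2 fold changes of -1.74, -2.82, -1.21 and 1.31 and were not called, though Tcf21, Tlx1 and Klf4 were with the replicate block (adjusted p = 0.0075, 0.0298 and 0.0158). Tlx1 was dim on ACKR4-positive replicate 2, so background signal enters its value. Srf, which encodes serum response factor, stood at 0.54 (adjusted p = 0.515).

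**Figure D4:**
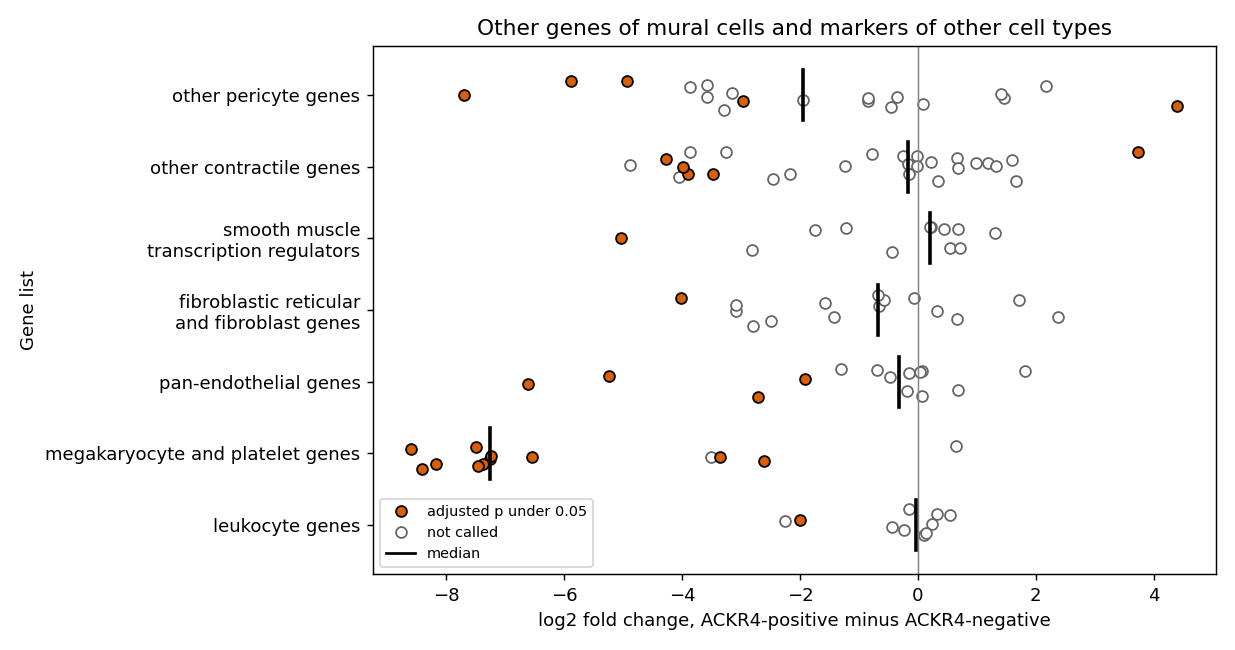
Log2 fold change of each tested gene (ACKR4-positive minus ACKR4-negative, horizontal axis) in the lists of other mural genes and of markers of other cell types, with filled symbols for an adjusted p under 0.05, open symbols for genes not called and a bar at the median. Medians are -1.94 for other pericyte genes, -0.16 for other contractile genes and -7.26 for megakaryocyte and platelet genes, or -6.45 with dim genes at their bound.

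Markers of other cells moved with the members to different degrees. Over all tested genes 3.71% fell and 1.91% rose, or 8.55% and 6.75% with the replicate block. A single fall in a list is no result about that list. Of 13 megakaryocyte and platelet genes, 11 fell and 0 rose, and with the replicate block 12 fell and 0 rose. Of the 11, 6 had passed the filter only through the ACKR4-negative arrays. The summed signal of the list, in multiples of the array's 75th percentile, was 1.31 and 2.82 in ACKR4-positive cells against 104 and 236 in ACKR4-negative cells. The sum was higher in sort 2 in both groups, as were the levels of Acta2. Itga2b, a platelet integrin chain, had levels of -6.92 and -6.45 in ACKR4-positive cells, both not well above background, against 1.30 and 1.69 in ACKR4-negative cells. Clec1b of this list had a log2 fold change of -6.54. Tubb1, Gp5 and Gp6, not well above background in ACKR4-positive cells, were at least 54.5-fold, 87.5-fold and 78.9-fold lower. Platelets also carry several products listed here as mural, such as those of Gucy1b1 and Myl9, and the part of platelet RNA in the results was not tested. Fibroblastic reticular and fibroblast genes had 1 fall among 15 tested (6 falls and 2 rises with the replicate block), that of Pi16 at -4.02 ± 0.31. They summed to 46.7 and 57.4 in ACKR4-positive against 49.0 and 54.1 in ACKR4-negative cells. Vcam1 (levels of 5.15 and 5.47 against 4.57 and 4.71) and Cxcl12 made up most of this sum, so it is no measure of fibroblast content. Cxcl13, Cxcl12, Thy1 and Lepr of that list had values of -3.09 (at least 3.64-fold lower, being dim in ACKR4-positive cells), -1.42, -2.79 and -3.09. They were not called, but were with the replicate block (adjusted p = 0.0165, 0.0124, 0.00925 and 0.00265). Thy1 was dim on ACKR4-positive replicate 1, so background signal enters the blocked fit of Cxcl13 and Thy1. Pdgfra was well above background on 1 of 4 arrays. Pan-endothelial genes had 4 falls among 14 (5 falls and 1 rise with the replicate block, which added Robo4 and Tek), those of Vwf, Esam, Kdr and Emcn at -6.61, -1.92, -2.71 and -5.24, and summed to 657 and 748 in ACKR4-positive against 833 and 859 in ACKR4-negative cells. Esam and Kdr were not called with any single array left out, nor Emcn with either ACKR4-negative replicate left out (adjusted p up to 0.188), and neither Kdr nor Emcn with quantile normalization or median centring. Leukocyte genes had 1 fall among 10 (2 with the replicate block), that of Lck at -2.00, not called with any single array left out (adjusted p up to 0.194). They summed to 22.9 and 86.5 in ACKR4-positive against 24.3 and 45.7 in ACKR4-negative cells. Itgam (levels of 4.35 and 6.36 against 4.33 and 5.29) made up most of this sum, so it is no measure of leukocyte content. The 2 mesothelial genes tested, Msln at 4.49 and Wt1 at -1.57, were not called (adjusted p = 0.0812 and 0.151, and 0.0102 and 0.00978 with the replicate block). Msln was dim on both ACKR4-negative arrays and Wt1 on both ACKR4-positive arrays, so background signal enters these values. The part of these cells in the members' differences was not tested.

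Genes with the pattern most like that of Kcnj8, by Euclidean distance between centred levels on the 4 arrays, were Ccn2, Tmem255b, Inka1, C1qtnf9 and Eml1, at 0.15 to 0.33, where the median over all 17362 genes was 5.24. Ccn2 encodes a secreted matricellular protein and had a log2 fold change of -5.26 ± 0.28. Members were left out of this search. Those most like Acta2 were Actg2, Ptgs1, S100a4, Chac1 and Clec4d, at 0.66 to 1.13, with a median of 6.00 over all genes. Actg2 encodes enteric smooth muscle actin, and its levels were -7.17 and -4.88 in ACKR4-positive cells against -2.27 and -0.02 in ACKR4-negative cells. It was higher in sort 2 in both groups, though not well above background on ACKR4-positive replicate 1, and its log2 fold change was -4.88 ± 1.10 (limma, adjusted p = 0.101, and 0.000511 with the replicate block). Ptgs1 encodes cyclooxygenase-1, an enzyme abundant in platelets, and had levels of -5.82 and -3.20 in ACKR4-positive cells against 0.33 and 1.27 in ACKR4-negative cells. C1qtnf9, Chac1 and Clec4d were dim on both ACKR4-positive arrays, and Tmem255b, Actg2 and Ptgs1 were dim on 1 of them. The distances of these genes therefore include background signal. Distances over 4 arrays describe these arrays only.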

How the data were processed

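Expression was measured on 4 Agilent 1-colour arrays, 2 ACKR4-positive and 2 ACKR4-negative, all on 1 slide. The authors read spot intensities with Agilent Feature Extraction 10.7.3.1 (file headers). Background subtraction and detrending were done within each array, per the file headers, and no scaling was done between them. A deposited table of scaled intensities was tried as an alternative.

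Outlier-flagged spots were left out, the remaining ones of 4 spots per probe were averaged as log2, and the array's 75th percentile was subtracted. Probes entered the test if more than 50% of spots exceeded background clearly (well above background in the files) on both arrays of either group, and a gene was represented by its brightest such probe. The number of arrays limits the precision. Groups were compared with limma 3.58.1 in R 4.3.3 (2-sided, Benjamini-Hochberg over 17362 genes), tested on simulated data first. There it recovered 0 of 50 genes changed 2-fold, 0 of 50 changed 4-fold, 23 of 50 changed 16-fold and 32 of 50 changed 64-fold. A gene that was not called can therefore still differ. Errors are standard errors of the fit. In a bound, dim arrays take at least the array's lowest well-above-background level. Figures used Python 3.11.15 and matplotlib 3.10.9.

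Same-numbered arrays share a mouse number and a replicate number in the labels, and each number is read here as a sort. Their deviations correlated at 0.605 over genes (replicate 1 minus replicate 2, between the groups). The replicate block is therefore given for members, list counts and most named genes where it changes a call. Alternatives covered background correction, scaling, filters, probes, flagged spots, the prior, the block and each array left out. The members and gene lists were chosen with earlier results of these data known. The rule for named genes takes the members, Ackr4, Pecam1, Cdh5, up to 5 genes per list by p and 5 genes most like Kcnj8 and Acta2. Genes called with the block alone, and Srf, Myocd, Ptprc, Pdgfra and Vcam1, were added after their values were seen.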

Additional observations from a re-analysis of the deposited data

How the results depend on the processing

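All 10 members kept a lower mean level in ACKR4-positive cells under the 14 alternatives run, and under the dimmer Mcam probe, which was chosen after seeing the data. Kcnj8 and Abcc9 stayed below the threshold in all 14, with adjusted p up to 0.0255 and 0.0398. Rgs5 was tested without the filter on dim probes only (adjusted p = 0.441). With sort as a replicate block, 2656 genes differed in place of 976, 8 members in place of 4, and 29 genes of the other pericyte and contractile lists in place of 10; it ended no call of a member. Leaving out 1 array gave 387 to 892 genes (387 without ACKR4-negative replicate 1, 448 without ACKR4-negative replicate 2, 511 without ACKR4-positive replicate 1), 2 to 4 members (2 without ACKR4-positive replicate 1) and 7 to 16 genes of those lists (16 without ACKR4-negative replicate 1). It moved the pericyte median to between -4.32 and -3.06, the contractile median to between -4.42 and -3.36 and their difference to between -0.37 and 1.36, so the sign of that difference depended on the array. With normexp background correction these were -2.83, -2.33 and -0.50, and differences of dim genes shrank. That setting changes the spot signal used, the background model and an added offset together, and the part of each was not tested. With the authors' table the contractile median was -3.36. Acta2 was also called with normexp (-5.30, adjusted p = 0.0474), and Cspg4 was not called with normexp (-1.10, adjusted p = 0.112) or with median centring, no filter or the trended prior (adjusted p = 0.0528 to 0.0721). Where no cause is given here, the cause was not tested. Called pan-endothelial genes numbered 2 with quantile normalization or median centring and 1 to 2 with an array left out, against 4. Called leukocyte genes numbered 0 without the filter or any 1 array, against 1. Called fibroblast genes numbered up to 3 (normexp), against 1, and regulators 2 without ACKR4-positive replicate 1, against 1. Called platelet genes numbered 6 without ACKR4-negative replicate 2, against 11. With all arrays on 1 slide, a slide block could not be fitted. Signal over background limits Rgs5, Myh11 and Cnn1, and the folds of Myh11 and Cnn1 are bounds.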
